A study of Homo sapiens with 15 samples.

Results

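The G2/M and mitosis genes described here are a list of 52 human genes that act in the G2 phase of the cell cycle, in mitosis or in cytokinesis. They were found by their symbols in 2 tables of RNA levels from oral cell lines. Of the 52, 51 have a row among the 12995 genes of the tables, and GAS2L3 has none. The 51 were sorted by role into 7 groups, namely mitotic entry (10 genes), the spindle checkpoint and anaphase-promoting complex (4), the kinetochore and centromere (6), the chromosomal passenger complex (3), spindle and microtubules (13), cytokinesis (4), and chromosome structure, chromatin and nuclear envelope (11).

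RNA came from 15 libraries in 5 groups of 3. OKF6 is a line of normal oral epithelial cells, labelled wild type and carrying no construct per the labels, and it was grown in keratinocyte serum-free medium. SCC15 and SCC25 are oral cancer lines transduced with Cas9 and a doxycycline-inducible guide against YBX1, which encodes a cold-shock protein that binds DNA and RNA. In SCC15 +YBX1 and SCC25 +YBX1 the construct was present and no doxycycline was given. In SCC15 -YBX1 and SCC25 -YBX1 doxycycline was given at 1 µg/mL, and all 5 groups are labelled 3 days. The transduced cells were sorted as pools by their 2 fluorescent reporters, not as clones. No group received doxycycline with a control guide, so the effect of the drug and that of the YBX1 guide cannot be told apart. SCC25 shared the medium of OKF6, whereas SCC15 was grown in DMEM with serum, so in SCC15 an effect of medium and one of the cells cannot be told apart. Both cancer lines carried the construct and OKF6 did not. In either comparison with OKF6 an effect of the construct and one of the line thus cannot be told apart. The labels do not say whether the 3 libraries of a group came from separate cultures, so the p-values measure the spread between these libraries, which may be technical.

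A cell enters mitosis when the kinase CDK1, bound to a B-type cyclin, is freed from inhibitory phosphates by CDC25 phosphatases. Kinetochores then join chromosomes to the spindle, and the spindle checkpoint holds back the anaphase-promoting complex and its activator CDC20 until each chromosome is attached. After that cohesion is lost, cyclin B is destroyed and the cell divides. Transcripts of these genes are low in G1 and build up towards G2, so in bulk RNA their level depends on the share of cells in G2 and mitosis as well as on the level per cell. In these libraries fewer cycling cells and less RNA per cell cannot be told apart.

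Promoters of many of these genes carry CCAAT boxes, the site of the factor NF-Y, and a cell cycle genes homology region, the site through which the MuvB complexes act. YBX1 takes its name from the Y-box, an inverted CCAAT sequence. RefSeq promoter windows (GRCh38.p14, 250 bases before to 50 after a start site) were matched for 43 of the 51 genes, and not for UBE2C, TPX2, ANP32E, AURKA, BIRC5, CDCA2, TTK and HMGB2. The windows of CDK1, CCNB2 and CDC25C are shown because they are the core of the CDK1 switch and hold both kinds of motif. They lie at chr10:60778228-60778527 on the plus strand, at chr15:59104896-59105195 on the plus strand and at chr5:138331755-138332054 on the minus strand. Where a gene has several windows, the one starting at the canonical GENCODE start is given. Each is written 5′ to 3′ along its gene, with capitals for CCAAT and TTTGAA on either strand, so that ATTGG and TTCAAA are their reverse complements.
CDK1: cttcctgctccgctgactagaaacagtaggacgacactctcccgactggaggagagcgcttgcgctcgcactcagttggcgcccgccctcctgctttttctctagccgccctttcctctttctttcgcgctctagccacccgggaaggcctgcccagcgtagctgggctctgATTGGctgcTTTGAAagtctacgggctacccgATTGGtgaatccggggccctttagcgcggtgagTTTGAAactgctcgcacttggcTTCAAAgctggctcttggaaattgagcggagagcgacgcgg
CCNB2: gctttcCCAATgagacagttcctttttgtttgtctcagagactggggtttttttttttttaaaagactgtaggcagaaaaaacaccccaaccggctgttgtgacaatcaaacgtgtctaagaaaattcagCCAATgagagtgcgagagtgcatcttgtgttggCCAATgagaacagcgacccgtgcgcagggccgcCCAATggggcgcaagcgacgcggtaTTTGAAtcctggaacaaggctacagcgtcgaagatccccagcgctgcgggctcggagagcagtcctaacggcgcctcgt
CDC25C: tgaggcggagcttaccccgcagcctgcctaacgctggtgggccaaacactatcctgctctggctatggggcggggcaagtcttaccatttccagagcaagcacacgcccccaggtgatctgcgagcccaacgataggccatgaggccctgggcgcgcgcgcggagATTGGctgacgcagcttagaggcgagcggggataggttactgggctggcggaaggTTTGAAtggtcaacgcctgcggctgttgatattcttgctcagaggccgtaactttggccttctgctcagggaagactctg

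In the CDK1 window an inverted CCAAT began at -78 and at -46 from the start site, and TTTGAA at -69, at -13 and, reversed, at 10. CCNB2 held 4 forward CCAAT motifs, starting at -244, -120, -87 and -54, and 1 TTTGAA at -29. CDC25C had 1 inverted CCAAT at -85 and 1 TTTGAA at -30. Over all windows of a gene, searched on both strands, CCAAT was found in 31 of 43 genes (72.1%), against 43.4% of the 10053 genes of the tables with a window and 39.7% of all 27305 genes with one. TTTGAA or TTCGAA was found in 34 of 43 (79.1%), against 15.5% and 19.5%. Both kinds in the same window occurred in 27 of 43 (62.8%), against 6.53% and 7.85%. The longer Y-box form CTGATTGG, which contains an inverted CCAAT and so counts in both searches, was present in 7 of 43 genes (16.3%), against 6.4% and 4.75%. CENPE, KIF2C, CKAP2, TACC3 and LBR held none of the motifs. A match describes the letters in the window and is not a measured binding site.

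Between 4075290 and 6118501 reads were counted per library. The level of a gene is given as log2 CPM, the log2 of its reads scaled to a common library size, on which 1 unit is a factor of 2. The 51 genes had between 23 and 5579 reads in a library, so none was near 0. YBX1, the targeted gene, was at 5.11, 5.56 and 6.00 log2 CPM in SCC15 +YBX1 and at 3.36, 3.71 and 3.13 in SCC15 -YBX1, a 77.5% lower level. In SCC25 +YBX1 it was at 6.74, 6.31 and 6.62 and in SCC25 -YBX1 at 5.26, 4.70 and 3.65, a 75.2% lower level. The summed CPM of 8 markers of stratified epithelium was 23067 to 30002 in OKF6 and 9018 to 18251 in SCC25 +YBX1 but 90.2 to 121 in SCC15 +YBX1. In SCC15, 1 of the 8, TP63, was at 3 reads or fewer in every library. In SCC15 +YBX1 replicate 2, KRT5, KRT6A, CDH1 and PKP1 were also at 3 reads or fewer (-1.25, -3.57, -1.98 and -1.98 log2 CPM). Of the markers of other cell types, 2 of 7 for fibroblasts, 2 of 5 for leukocytes and 0 of 3 for endothelium had a row in the tables. Their summed CPM reached 98.1 for fibroblasts in SCC25 +YBX1 and 51.2 for leukocytes in SCC25 -YBX1. The summed CPM of 3 markers of simple epithelium was also lower in SCC15 +YBX1, at 56.2 to 59.1, than in OKF6 (1354 to 1738) and SCC25 +YBX1 (1203 to 1435). The SCC15 libraries thus held little of either set of epithelial markers in sum. The markers DSP and KRT18 remained at means of 6.53 and 5.76 log2 CPM in SCC15 +YBX1. The part of these levels in the results was not tested.

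Libraries of OKF6 were spread more widely than the rest. The median SD of the members was 0.40 log2 in OKF6 against 0.19 in SCC15 +YBX1 and 0.22 in SCC25 +YBX1. It was 0.22 in SCC15 -YBX1 and 0.30 in SCC25 -YBX1. Over all genes in the members' range of level it was 0.45 in OKF6, 0.24 in SCC15 +YBX1 and 0.175 in SCC25 +YBX1. The wide spread of OKF6 was thus not particular to the members. In OKF6 replicate 1, 32 of the 51 members were the highest of their group, and in SCC25 +YBX1 replicate 1, 43 of 51 were the lowest. Counts that rest on these libraries are therefore given with and without them.

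**Figure D1:**
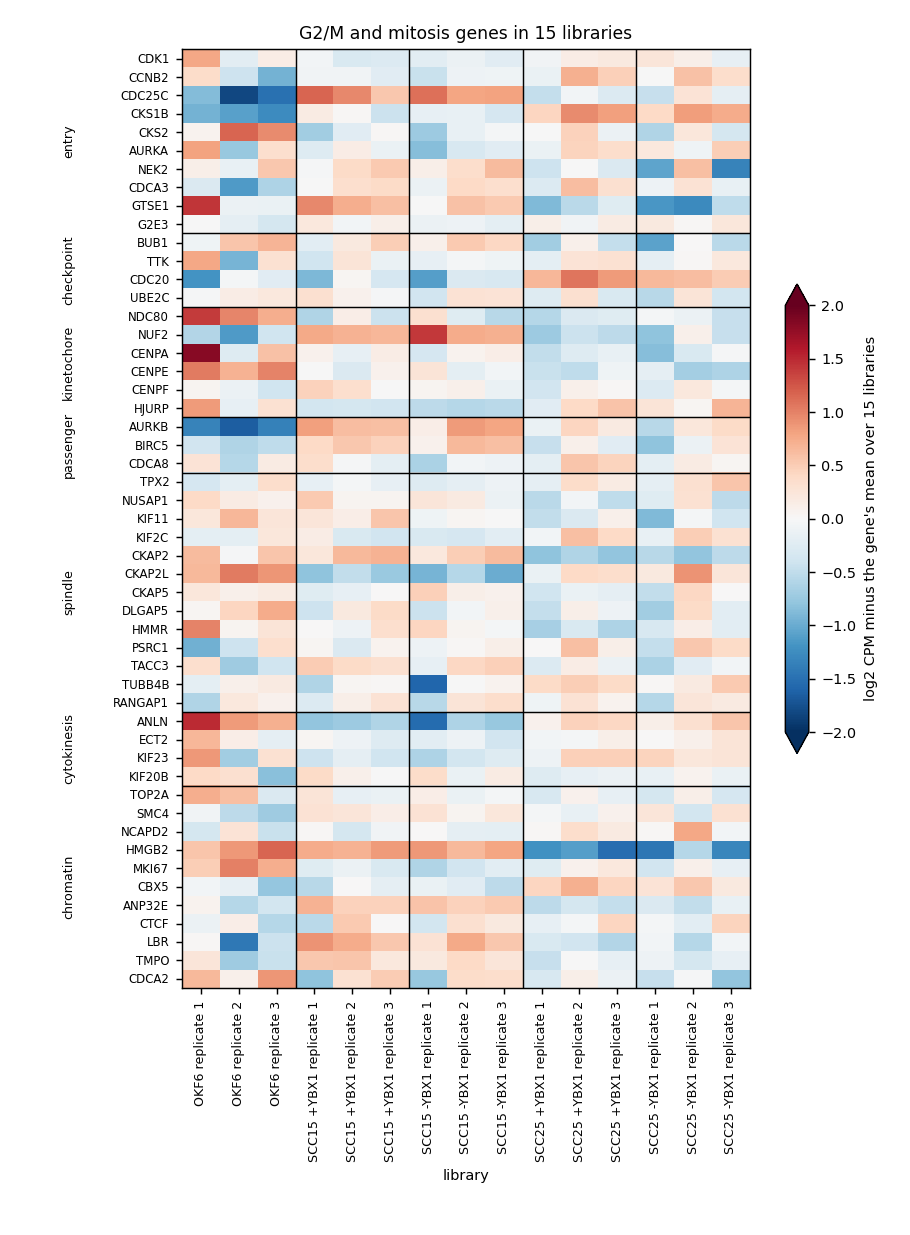
Heat map of the 51 G2/M and mitosis genes (rows, by role) in 15 libraries (columns, 3 per group), coloured by log2 CPM minus the gene's mean over the 15 libraries. Blocks of one colour that follow the groups stand out for CDC25C, AURKB, HMGB2 and ANLN, while most rows show small or mixed differences.

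The mean level of the 51 genes overlapped between the lines. It was 6.28 ± 0.17 log2 CPM in OKF6 (SD, n = 3), 6.33 ± 0.04 in SCC15 +YBX1 and 6.202 ± 0.194 in SCC25 +YBX1, and after doxycycline 6.25 ± 0.12 in SCC15 -YBX1 and 6.17 ± 0.19 in SCC25 -YBX1. The 5 groups overlapped on this measure. The share of counted reads that fell on the 51 genes was 0.579% ± 0.032 in OKF6, 0.730% ± 0.012 in SCC15 +YBX1 and 0.596% ± 0.079 in SCC25 +YBX1, and each SCC15 +YBX1 library lay above each library of OKF6 and SCC25. The share is taken over the counted reads as they are, whereas the log2 CPM rests on normalised library sizes. In SCC15 +YBX1 replicate 1, with 4780340 reads, 1 read was worth 0.182 CPM. In SCC25 +YBX1 replicate 1, with 6090488 reads, it was worth 0.188 CPM. The share also depends most on the genes with the most reads, whereas the mean gives each gene the same weight. The part of each in the higher share of SCC15 +YBX1 was not tested. The highest mean among the 3 lines without doxycycline was in OKF6 for 19 members, in SCC15 for 17 and in SCC25 for 15.

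**Figure D2:**
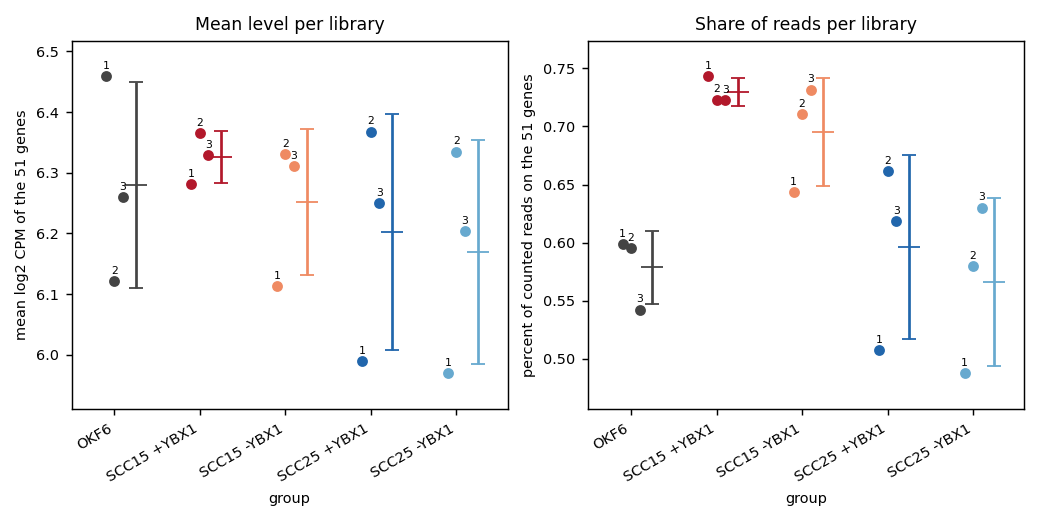
Mean log2 CPM of the 51 genes (left) and percent of counted reads on them (right) in each library, with the replicate number beside each point and the group mean ± SD beside the points. The means of the 5 groups, from 6.17 to 6.33 log2 CPM, overlap, and the SCC25 replicate 1 libraries are the lowest.

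The first question was whether G2/M and mitosis genes differed between the cancer lines and the normal line, and between the 2 cancer lines. Between SCC15 +YBX1 and OKF6, 16 of 51 members passed the test (31.4%), 10 of them higher and 6 lower in SCC15. Over all 12995 genes the share was 50.3%, with 26.9% higher and 23.4% lower. Between SCC25 +YBX1 and OKF6, 13 of 51 passed (25.5%), 6 higher and 7 lower, against 30.2% of all genes, 18.9% higher and 11.3% lower. Setting quantiles equal left 2006 genes higher and 1837 lower in that comparison. Between SCC15 +YBX1 and SCC25 +YBX1, 14 of 51 passed (27.5%), 9 higher in SCC15 and 5 lower, against 43.6% of all genes, 20% higher and 23.6% lower. The 9 and 5 became 15 and 3 with quantiles set equal and 13 and 4 with library medians set equal.

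Among the 7331 genes whose mean level lay within the range of the members, the shares past the test were 48.5%, 31.3% and 40.8%. The members' shares were thus below those of all genes in each comparison, most in SCC15 against OKF6, and these shares were not tested against each other. The median log2 change of the members was 0.01 in SCC15 against OKF6, 0.06 in SCC25 against OKF6 and 0.10 in SCC15 against SCC25, beside 0.10, 0.13 and -0.01 for all genes. A change of at least 1 log2 unit was seen in 9, 9 and 8 members, and for all genes in 49.9%, 36.1% and 44.6%. In all, 28 members passed in none of the 3 comparisons, 6 in 1, 14 in 2 and 3 in all 3. Both comparisons with OKF6 share the OKF6 libraries, and each pair of comparisons shares a line. Without OKF6 replicate 1, 18 members passed in SCC15 against OKF6 (57.2% of all genes) and 18 in SCC25 against OKF6 (41%). In SCC15 against SCC25, 20 then passed (13 higher, 7 lower, 52.3% of all genes), and 18 without OKF6 replicate 2 (49.5%). OKF6 enters that comparison only through the estimate of spread that all groups of a fit share. Without SCC25 +YBX1 replicate 1, 10 passed in SCC25 against OKF6 (21.3%) and 12 in SCC15 against SCC25 (34.8%).

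**Figure D3:**
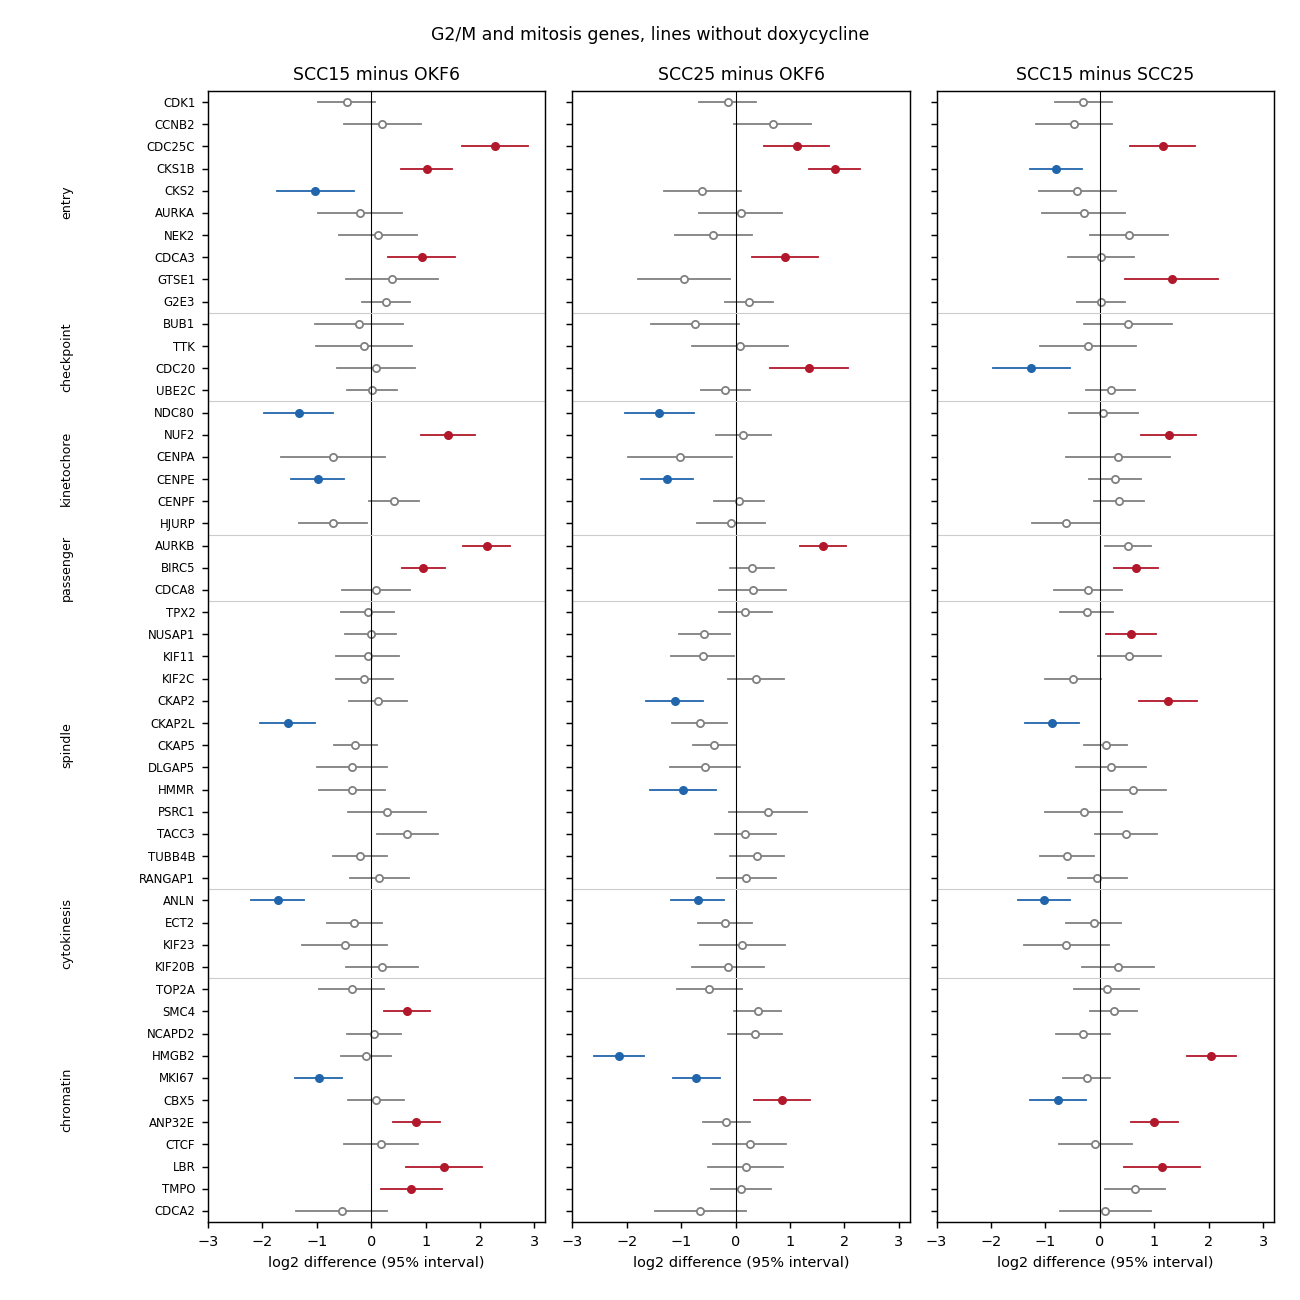
Log2 differences of the 51 genes between lines without doxycycline, with 95% intervals (limma), by role. Filled red and blue points passed the adjusted threshold as higher and lower, open points did not. Most intervals span 0, and the points that passed fall on both sides in each panel.

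Genes of mitotic entry held the member with the largest change. CDC25C, the phosphatase that activates CDK1 at the start of mitosis, was at 5.16, 4.22 and 4.55 log2 CPM in OKF6, at 5.56, 5.98 and 5.75 in SCC25 +YBX1 and at 7.19, 6.99 and 6.57 in SCC15 +YBX1. The 3 groups did not overlap. CDC25C was 4.84-fold higher in SCC15 than in OKF6 (log2 change 2.28, SE 0.27, adjusted p = 4.27e-05), 2.18-fold higher in SCC25 than in OKF6 (log2 1.12, adjusted p = 0.0103) and 2.22-fold higher in SCC15 than in SCC25 (log2 1.15, adjusted p = 0.00561). It was 1 of the 3 members that passed in every comparison.

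CDK1 itself and its cyclin did not pass in any of them. CDK1 was at 7.82, 6.83 and 7.20 in OKF6, 6.99, 6.73 and 6.78 in SCC15 +YBX1, and 6.98, 7.19 and 7.24 in SCC25 +YBX1. Its log2 differences, -0.45 in SCC15 and -0.15 in SCC25 against OKF6 (SE 0.24), had adjusted p = 0.141 and 0.679, and that between the cancer lines was -0.31 (adjusted p = 0.329). CCNB2, a B-type cyclin, had log2 differences of 0.21 in SCC15 and 0.68 in SCC25 against OKF6 (SE 0.32, adjusted p = 0.618 and 0.131) and -0.48 between SCC15 and SCC25 (adjusted p = 0.253), with overlapping libraries. Without OKF6 replicate 2 the CDK1 difference in SCC15 was -0.68 and passed (adjusted p = 0.026), and without OKF6 replicate 1 the CCNB2 difference in SCC25 was 1.03 and passed (adjusted p = 0.008).

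The CKS proteins are small subunits that bind CDKs. CKS1B was at 7.53, 7.38 and 7.22 in OKF6, 8.63, 8.50 and 8.04 in SCC15 +YBX1, and 8.89, 9.41 and 9.28 in SCC25 +YBX1, again without overlap. CKS1B was higher by log2 1.02 in SCC15 (adjusted p = 0.00238) and by 1.82 in SCC25 (adjusted p = 0.000158), and lower in SCC15 than in SCC25 (log2 change -0.80, adjusted p = 0.0115). CKS2 went the other way, at 5.26, 6.36 and 6.14 in OKF6 and 4.49, 4.96 and 5.22 in SCC15 +YBX1 (log2 change -1.03, SE 0.32, adjusted p = 0.0203), and its difference in SCC25, -0.61, did not pass (adjusted p = 0.171). The last 500 bases of each transcript were cut into 75-base pieces, and those that aligned whole to the gene's own locus were counted. Of these, 98.8% for CKS1B and 29.2% for CKS2 also matched elsewhere in the genome within 1 mismatch. For CKS2 65 of the 86 pieces were counted, and the others were not assessed. Reads of both genes could be split with near-identical copies, so their values are uncertain. CKS1B lost its call against SCC25 with quantiles set equal (log2 change -0.47, adjusted p = 0.087), without SCC15 +YBX1 replicate 3 (0.058) and without SCC25 +YBX1 replicate 2 (0.056), and CKS2 lost its call without OKF6 replicate 2, OKF6 replicate 3 or SCC15 +YBX1 replicate 1 (0.066, 0.064 and 0.079).

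CDCA3, which promotes the destruction of the CDK1 inhibitor WEE1, was higher than in OKF6 in both cancer lines. It was at 6.098, 5.26 and 5.77 in OKF6, 6.39, 6.74 and 6.78 in SCC15 +YBX1, and 6.13, 7.01 and 6.72 in SCC25 +YBX1, with log2 changes of 0.93 and 0.91 (SE 0.28, adjusted p = 0.0168 and 0.0305). The SCC25 call was lost under 6 alternatives, among them without OKF6 replicate 2 or 3 and without SCC25 +YBX1 replicate 2 or 3 (adjusted p of 0.085, 0.059, 0.129 and 0.096). GTSE1, a microtubule-associated protein of S and G2 phases, was at 6.38, 6.14 and 6.02 in SCC15 +YBX1 and 4.54, 4.88 and 5.17 in SCC25 +YBX1 (log2 change 1.32, SE 0.38, adjusted p = 0.0174), with OKF6 at 6.85, 5.30 and 5.27, above each SCC25 +YBX1 library and overlapping SCC15 +YBX1. That call was lost without SCC15 +YBX1 replicate 1 or SCC25 +YBX1 replicate 1 (adjusted p = 0.064 and 0.069).

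AURKA, a kinase of the centrosome and spindle, had log2 differences of -0.21, 0.09 and -0.30 in the 3 comparisons (SE 0.35, adjusted p = 0.644, 0.874 and 0.516), and its OKF6 libraries alone ranged from 6.61 to 8.19. Without OKF6 replicate 2 its difference in SCC15 was -0.65 (adjusted p = 0.045). NEK2, a centrosome kinase, and G2E3, a ubiquitin ligase, did not pass in any comparison.

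Of the spindle checkpoint and anaphase-promoting complex genes, CDC20 differed. CDC20 activates the complex that ends metaphase. It was at 6.99, 8.15 and 7.95 in OKF6, 7.29, 8.23 and 7.85 in SCC15 +YBX1, and 8.84, 9.25 and 9.04 in SCC25 +YBX1, so that SCC25 stood above both other lines. CDC20 was 2.54-fold higher in SCC25 than in OKF6 (log2 1.35, SE 0.32, adjusted p = 0.00986) and 2.39-fold lower in SCC15 than in SCC25 (log2 change -1.26, adjusted p = 0.00901), while SCC15 and OKF6 differed by 0.09 (adjusted p = 0.837). The checkpoint kinases BUB1 and TTK, and UBE2C, the ubiquitin-conjugating enzyme of the complex, did not pass in any comparison, with log2 differences from -0.74 to 0.51.

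In the kinetochore, 2 partners of one complex went in opposite directions in SCC15. NDC80 and NUF2 pair to form the arm of the NDC80 complex that holds the microtubule. NDC80 was at 5.74, 5.31 and 5.07 in OKF6, 3.74, 4.47 and 3.91 in SCC15 +YBX1, and 3.77, 4.06 and 4.10 in SCC25 +YBX1, below OKF6 in every library of both cancer lines (log2 changes -1.33 and -1.40, SE 0.29, adjusted p = 0.00264 and 0.00446). NUF2 was at 4.94, 4.40 and 5.14 in OKF6 and 4.80, 5.10 and 5.01 in SCC25 +YBX1, but at 6.29, 6.23 and 6.2003 in SCC15 +YBX1. Its log2 change was 1.41 against OKF6 (SE 0.23, adjusted p = 0.000387) and 1.27 against SCC25 (adjusted p = 0.00105), and SCC25 and OKF6 differed by 0.15 (adjusted p = 0.663). CENPE, the kinesin motor that brings chromosomes to the spindle equator, was lower than in OKF6 in SCC15 (log2 change -0.98, SE 0.22, adjusted p = 0.00328) and in SCC25 (-1.26, adjusted p = 0.0018), with no overlap. CENPA, the histone H3 variant of centromeres, CENPF and HJURP, the chaperone of CENPA, did not pass, and CENPA ranged from 4.18 to 6.26 within OKF6.

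The chromosomal passenger complex corrects faulty attachments and later guides cytokinesis. Its kinase AURKB was at 6.65, 6.33 and 6.63 in OKF6, 7.84, 8.42 and 8.17 in SCC25 +YBX1, and 8.80, 8.60 and 8.58 in SCC15 +YBX1. These groups did not overlap, and AURKB had the smallest p of the members in SCC15 against OKF6. It was 4.35-fold higher in SCC15 than in OKF6 (log2 2.12, SE 0.19, adjusted p = 5.84e-06) and 3.04-fold higher in SCC25 (log2 1.61, adjusted p = 0.000181), and the difference between the cancer lines, 0.52, had an adjusted p of 0.0508. That last difference passed with library medians set equal (0.67, adjusted p = 0.022), with quantiles set equal (0.88, adjusted p = 0.003) and in 4 other alternatives.

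BIRC5 (survivin), which anchors the complex at centromeres, was at 7.28, 7.06 and 7.16 in OKF6, 8.05, 8.19 and 8.13 in SCC15 +YBX1, and 7.20, 7.76 and 7.43 in SCC25 +YBX1. It was higher in SCC15 than in OKF6 (log2 change 0.96, SE 0.18, adjusted p = 0.00118) and than in SCC25 (0.66, adjusted p = 0.0134, or 0.068 without SCC25 +YBX1 replicate 1), and overlapped between SCC25 and OKF6 (0.30, adjusted p = 0.240). CDCA8 (borealin), the third member of the complex on the list, had log2 differences of 0.09, 0.31 and -0.22 and did not pass. The levels of these genes in each library are drawn in the plot of 12 members by group.

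**Figure D4:**
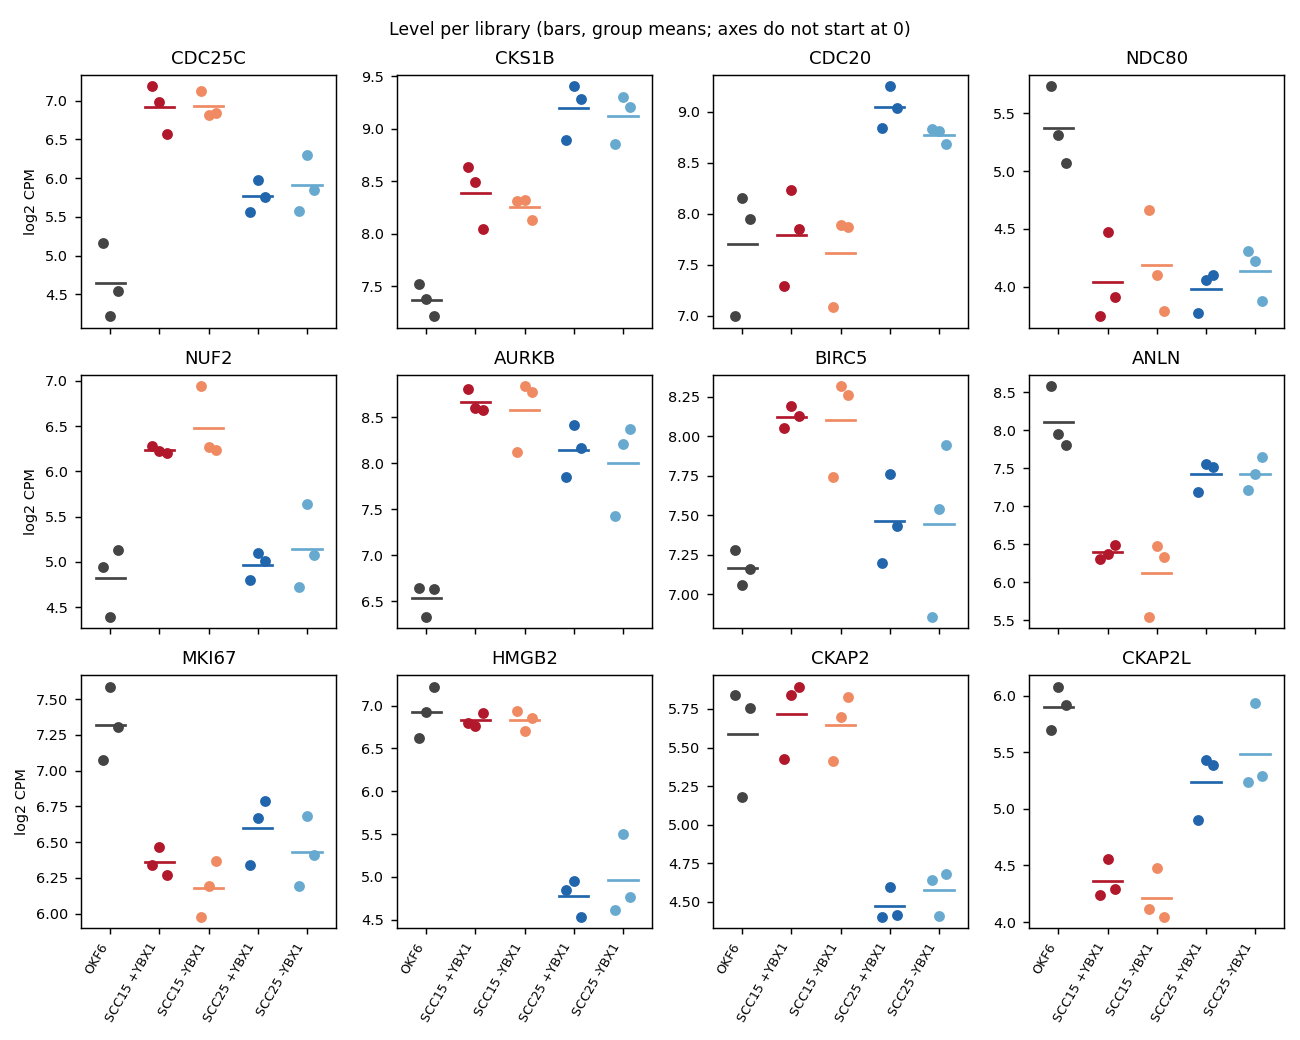
Log2 CPM of 12 members in each of the 15 libraries, by group, with bars at group means. OKF6 and SCC15 +YBX1 libraries do not overlap for CDC25C, CKS1B, NDC80, NUF2, AURKB, BIRC5, ANLN, MKI67 or CKAP2L, and the -YBX1 libraries overlap the +YBX1 libraries of their line except for CDC20 in SCC25.

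Of the 13 spindle and microtubule genes, 1 passed in SCC15 against OKF6, 2 in SCC25 against OKF6 and 3 between the cancer lines, beside 50.3%, 30.2% and 43.6% of all genes, and the shares were not tested against each other. CKAP2 and its relative CKAP2L, both spindle-associated, had different patterns. CKAP2L was at 5.70, 6.08 and 5.92 in OKF6, 4.91, 5.43 and 5.39 in SCC25 +YBX1, and 4.24, 4.56 and 4.30 in SCC15 +YBX1. It was 2.90-fold lower in SCC15 than in OKF6 (log2 change -1.54, SE 0.23, adjusted p = 0.000208) and lower than in SCC25 (-0.88, adjusted p = 0.0094), and its difference between SCC25 and OKF6, -0.66, had an adjusted p of 0.0501. CKAP2 was instead low in SCC25, at 4.40, 4.59 and 4.41 against 5.84, 5.18 and 5.76 in OKF6 (log2 change -1.12, SE 0.24, adjusted p = 0.00566) and 5.42, 5.84 and 5.90 in SCC15 +YBX1 (SCC15 minus SCC25 1.25, adjusted p = 0.00161).

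HMMR, a spindle and hyaluronan-binding protein, was lower in SCC25 than in OKF6 (log2 change -0.97, SE 0.27, adjusted p = 0.0215), a call lost without SCC25 +YBX1 replicate 1 or 3 (0.077 and 0.072). NUSAP1, which bundles spindle microtubules, was higher in SCC15 than in SCC25 (log2 change 0.57, SE 0.21, adjusted p = 0.0489). CKAP2L and HMMR, like KIF2C, SMC4 and TUBB4B, have a gene on the opposite strand at their 3′ end, and the strand setting of the counting is not given in the sources used here, so reads of either strand cannot be told apart. CCNB2 and NUSAP1 have another gene on the same strand there, which counting by strand cannot separate. The remaining genes, TPX2, KIF11, KIF2C, CKAP5, DLGAP5, PSRC1, TACC3, TUBB4B and RANGAP1, passed in no comparison, with log2 differences from -0.61 to 0.66, although TACC3 came to an adjusted p of 0.0506 in SCC15 against OKF6. Of the 3′ pieces of TUBB4B, a beta-tubulin, that aligned whole to its locus, 26.7% matched elsewhere. For CDC20 and UBE2C it was 8.33% each, of the 60 of 86 pieces that aligned whole.

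Of the 4 cytokinesis genes, ANLN was lower than in OKF6 in both cancer lines. ANLN encodes anillin, a scaffold of the contractile ring. It was at 8.58, 7.95 and 7.81 in OKF6, 7.19, 7.56 and 7.51 in SCC25 +YBX1, and 6.31, 6.37 and 6.49 in SCC15 +YBX1, 3 groups without overlap. The log2 change was -1.72 in SCC15 (3.30-fold lower, SE 0.22, adjusted p = 7.14e-05) and -0.69 in SCC25 (adjusted p = 0.0354), and SCC15 was below SCC25 by a log2 change of -1.03 (adjusted p = 0.0032). ECT2, KIF23 and KIF20B, which act at the spindle midzone or cleavage site, did not pass in any comparison.

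Among the 11 genes of chromosome structure, chromatin and nuclear envelope, HMGB2 set SCC25 apart. HMGB2 is a chromatin protein that bends DNA. It was at 6.62, 6.93 and 7.22 in OKF6, 6.80, 6.76 and 6.92 in SCC15 +YBX1, and 4.85, 4.96 and 4.54 in SCC25 +YBX1. SCC25 was thus below each library of the other lines, 4.42-fold lower than OKF6 (log2 change -2.14, SE 0.205, adjusted p = 4.02e-05) and with SCC15 4.13-fold above it (2.05, adjusted p = 1.58e-05), while SCC15 and OKF6 differed by -0.10 (adjusted p = 0.720).

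MKI67, the proliferation marker Ki-67 that coats mitotic chromosomes, was lower in both cancer lines than in OKF6. It was at 7.07, 7.59 and 7.31 in OKF6, 6.34, 6.47 and 6.27 in SCC15 +YBX1, and 6.34, 6.67 and 6.79 in SCC25 +YBX1, with log2 changes of -0.96 (SE 0.20, adjusted p = 0.00185) and -0.72 (adjusted p = 0.018) and -0.24 between the cancer lines (adjusted p = 0.345). The SCC25 call was lost without SCC25 +YBX1 replicate 1 (adjusted p = 0.083), without replicate 2 (0.05002) and without a variance trend (0.052). TOP2A, the topoisomerase that untangles sister chromatids, did not pass, with log2 differences of -0.36, -0.48 and 0.12 (SE 0.27, adjusted p = 0.291, 0.199 and 0.737). Its OKF6 libraries were at 8.85, 8.72 and 7.84, and without the third both differences against OKF6 passed (-0.68 and -0.80, adjusted p = 0.028 and 0.024).

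LBR, ANP32E, TMPO and SMC4 were higher in SCC15 than in OKF6, and LBR and ANP32E were also higher than in SCC25. LBR, the lamin B receptor, was at 6.80, 5.34 and 6.35 in OKF6, 7.66, 7.51 and 7.30 in SCC15 +YBX1, and 6.47, 6.38 and 6.19 in SCC25 +YBX1 (log2 changes 1.33 and 1.15 for SCC15 against OKF6 and SCC25, SE 0.31, adjusted p = 0.00469 and 0.0129). ANP32E, a chaperone of histone H2A.Z, was higher in SCC15 by 0.83 than in OKF6 and by 0.99 than in SCC25 (SE 0.195, adjusted p = 0.00473 and 0.00188). TMPO, a lamina-binding protein, and SMC4, a condensin subunit, were higher in SCC15 than in OKF6 by 0.74 and 0.66 (adjusted p = 0.0306 and 0.0158), and the libraries of TMPO overlapped. Their differences between SCC15 and SCC25, 0.64 and 0.25, did not pass (adjusted p = 0.0601 and 0.321).

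CBX5, the heterochromatin protein HP1 alpha, was higher in SCC25, by 0.85 against OKF6 (SE 0.23, adjusted p = 0.0189) and with a log2 change of -0.76 in SCC15 against SCC25 (adjusted p = 0.0215). That last call was lost under 6 alternatives, with adjusted p up to 0.124 with quantiles set equal and 0.081, 0.0505 and 0.086 without SCC15 +YBX1 replicate 1 or 3 or SCC25 +YBX1 replicate 2. Of its 3′ pieces 36.0% also matched elsewhere, so its reads are uncertain. NCAPD2, CTCF and CDCA2 did not pass in any comparison.

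The second question was whether lower YBX1 changed these genes within each cancer line. None of the 51 members passed in SCC15 or in SCC25 (with a smallest adjusted p of 0.999906 and 0.999834), nor did any of the 12995 genes, so percent called was 0 in both and YBX1 itself had an adjusted p of 0.326 and 0.290 over all genes. At an unadjusted p under 0.05 there were 0 members in SCC15 and 0 in SCC25, against 2.32% and 3.09% of all genes (302 and 401). YBX1 had log2 changes of -2.15 in SCC15 and -2.01 in SCC25 (SE 0.35), with each -YBX1 library below each +YBX1 library.

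The intervals limit how large a change could have been missed. The 95% interval of the log2 change had a median half-width of 0.46 in both lines. It lay within 1 log2 unit of 0 for 50 of 51 members in SCC15, TUBB4B being the exception, and for 49 of 51 in SCC25, where NEK2 and CDCA2 reached further down. The changes ranged from -0.40 to 0.36 in SCC15 and from -0.44 to 0.39 in SCC25. Their median was -0.06 in SCC15 and -0.02 in SCC25, beside -0.01 and -0.02 for all genes. In SCC15, 38 of 51 members had a negative change and in SCC25 29. Taken by replicate number, the median change of the members in SCC15 was -0.15, -0.02 and 0.02 in the 3 pairs, with 39, 28 and 23 members lower, so that the first pair held most of it. In SCC25 the 3 pairs gave -0.01, -0.11 and -0.02.

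CDK1 was at 6.99, 6.73 and 6.78 in SCC15 +YBX1 and 6.84, 6.93 and 6.81 in SCC15 -YBX1, a log2 change of 0.03 with a 95% interval from -0.29 to 0.35. In SCC25 it was at 6.98, 7.19 and 7.24 and then at 7.28, 7.16 and 6.89 (log2 change -0.03, interval -0.34 to 0.29). CCNB2 had log2 differences of -0.08 (-0.54 to 0.38) in SCC15 and -0.05 (-0.51 to 0.41) in SCC25, TOP2A of -0.00 (-0.38 to 0.38) and -0.05 (-0.44 to 0.33), and MKI67 of -0.18 (-0.55 to 0.20) and -0.17 (-0.55 to 0.21). These intervals all span 0 and overlap between the lines. AURKB had -0.08 (-0.62 to 0.46) and -0.14 (-0.68 to 0.40), BIRC5 -0.02 (-0.55 to 0.51) and -0.02 (-0.55 to 0.51), and CDC20 -0.17 (-0.70 to 0.36) and -0.27 (-0.80 to 0.26). CDC20 was below in each SCC25 -YBX1 library, at 8.83, 8.81 and 8.69 against 8.84, 9.25 and 9.04.

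The 5 members nearest to a call in SCC15 were AURKA (log2 difference -0.38, 95% interval -0.85 to 0.08), CKAP5 (0.36, -0.10 to 0.82), GTSE1 (-0.40, -0.93 to 0.13), G2E3 (-0.23, -0.57 to 0.11) and CENPF (-0.26, -0.65 to 0.13), in the order of their unadjusted p. AURKA was at 7.12, 7.52 and 7.25 in SCC15 +YBX1 and 6.52, 7.06 and 7.16 in SCC15 -YBX1, overlapping, and in SCC25 its change was -0.01 (-0.47 to 0.46). GTSE1 was at 6.38, 6.14 and 6.02 and then at 5.41, 6.00 and 5.94, without overlap. In SCC25 they were HMMR (0.39, -0.05 to 0.84), GTSE1 (-0.44, -0.96 to 0.09), CKS2 (-0.36, -0.95 to 0.24), CDCA8 (-0.26, -0.75 to 0.23) and TACC3 (-0.23, -0.66 to 0.20). GTSE1, in both lists, was at 4.54, 4.88 and 5.17 in SCC25 +YBX1 and 4.25, 4.13 and 4.90 in SCC25 -YBX1, overlapping.

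Whether the change differed between the lines was tested as the knockdown change in SCC25 minus that in SCC15. None of the members passed (percent called over all genes 0), and at an unadjusted p under 0.05 there were 0 members against 2.26% of all genes (294). The differences ranged from -0.44 to 0.40, that of LBR (0.40, 95% interval -0.15 to 0.95) coming nearest to a call, and 43 of 51 intervals lay within 1 log2 unit.

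**Figure D5:**
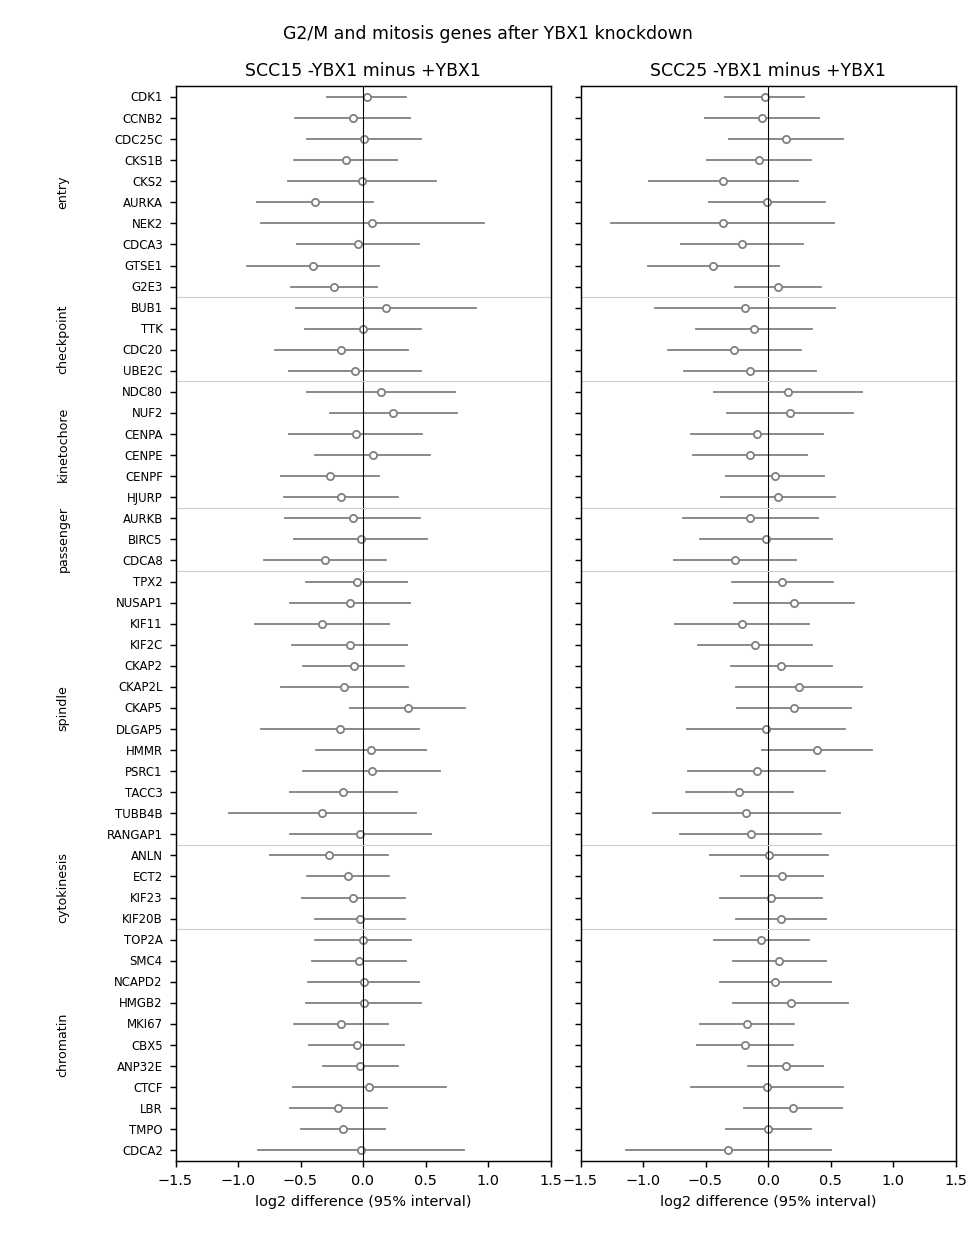
Log2 changes of the 51 genes in -YBX1 against +YBX1 libraries of SCC15 (left) and SCC25 (right), with 95% intervals (limma), by role. All points lie between -0.44 and 0.39, and each interval spans 0.

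The same comparisons were made for 73 other genes of the G2/M pathway, of which 70 had a row (not SPC24, KIF18B and KIFC1). In SCC15 against OKF6, 24 of 70 passed (13 higher, 11 lower), in SCC25 against OKF6 18 (5 higher, 13 lower), and in SCC15 against SCC25 24 (15 higher, 9 lower). These are 34.3%, 25.7% and 34.3%, again below the 50.3% and 30.2% and 43.6% of all genes. In the knockdown 0 of 70 passed in either line, with 0 and 1 at an unadjusted p under 0.05.

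CCNB1, the main mitotic cyclin, did not pass between lines (log2 differences 0.05, -0.13 and 0.19, SE 0.28, adjusted p = 0.887, 0.747 and 0.615). PLK1, the kinase that drives many steps of mitosis, was at 9.0004, 6.82 and 7.25 in OKF6, 9.32, 9.85 and 9.09 in SCC15 +YBX1, and 8.89, 9.45 and 9.80 in SCC25 +YBX1. OKF6 replicate 1 alone was near the cancer lines. PLK1 was higher in SCC15 (log2 change 1.73, SE 0.49, adjusted p = 0.0125, or 0.054 without SCC15 +YBX1 replicate 2) and in SCC25 (1.69, adjusted p = 0.0241, a call lost under 6 alternatives with adjusted p from 0.051 to 0.091). FOXM1, a transcription factor of mitotic genes, had log2 differences of -0.25, 0.36 and -0.62 (SE 0.28, adjusted p = 0.486, 0.365 and 0.105). It passed as lower in SCC15 without OKF6 replicate 1, against OKF6 (-0.61, adjusted p = 0.017) and against SCC25 (-0.62, adjusted p = 0.0098), and also against SCC25 with only these groups fitted (adjusted p = 0.0087).

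The CDC25 family was split. CDC25A, which acts in G1 and G2, was higher in SCC15 like CDC25C, by log2 2.23 against OKF6 (SE 0.27, adjusted p = 5.15e-05) and 2.06 against SCC25 (adjusted p = 0.00012). CDC25B, which acts at mitotic entry, was lower in SCC15, with log2 changes of -2.22 (SE 0.27, adjusted p = 5.42e-05) against OKF6 and -1.41 against SCC25 (adjusted p = 0.00174). In SCC25 against OKF6 CDC25B was also lower (-0.81, adjusted p = 0.0450), and the CDC25A difference of 0.16 did not pass (adjusted p = 0.680).

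The G2 arrest genes SFN, GADD45A and CDKN1A were lower in SCC15 than in OKF6. SFN, the 14-3-3 sigma protein that holds CDK1 in the cytoplasm, was at 11.25, 11.40 and 11.45 in OKF6, 11.83, 12.15 and 11.93 in SCC25 +YBX1, and 1.07, 0.13 and 2.32 in SCC15 +YBX1 (log2 changes of -10.19 and -10.79 in SCC15, SE 0.42, adjusted p = 7.02e-08 and 5.46e-08). SFN is also an epithelial gene, and it was low in the line whose stratified epithelial markers were low. GADD45A, induced by DNA damage, was lower than in OKF6 in SCC15 (-3.31, SE 0.23, adjusted p = 8.52e-07) and in SCC25 (-3.36, adjusted p = 6.60e-06). CDKN1A, the CDK inhibitor p21, was lower in SCC15 (-1.78 against OKF6 and -1.84 against SCC25, SE 0.30, adjusted p = 0.000474 and 0.000487), and SCC25 and OKF6 differed by 0.06 (adjusted p = 0.909).

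The checkpoint kinase CHEK2 was higher in SCC15 (2.22 and 1.82, SE 0.30, adjusted p = 9.98e-05 and 0.000532).

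In the other groups, MAD1L1, a spindle checkpoint protein, was higher than in OKF6 in SCC25 (2.79, SE 0.235, adjusted p = 2.01e-05) and in SCC15 (1.98, adjusted p = 4.10e-05), NFYC, a subunit of the CCAAT-binding factor NF-Y, was higher in both (1.33 in each, SE 0.24, adjusted p = 0.00225 in SCC25 and 0.000853 in SCC15), and the centromere gene CENPU was lower in SCC25 (-1.33, SE 0.22, adjusted p = 0.00142). Of the 8 genes of condensin and cohesin protection, 5 were lower and 1 higher in SCC25 than in OKF6, where 11.3% of all genes were lower and 18.9% higher, and 0 passed in SCC15 against OKF6, where 50.3% of all genes did. These shares were not tested against each other, and this group was picked out after its values were seen. The condensin subunits SMC4 and NCAPD2, on the member list, and SMC2, 1 of the 8, were not lower in SCC25. Their log2 differences of 0.40, 0.36 and 0.09 did not pass. In the knockdown the named genes had log2 changes of -0.32 and -0.10 for CCNB1, -0.38 and -0.07 for PLK1, -0.20 and -0.11 for FOXM1, and -0.15 and -0.08 for CDKN1A in SCC15 and SCC25 (SE 0.32, 0.26, 0.24 and 0.27).

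Within groups, many of the members moved together between libraries. After subtracting each gene's group mean, the mean correlation over the 1275 pairs of members was 0.18 across the 15 libraries, with 865 pairs (67.8%) positive, beside a mean of 0.01 over the 7547 genes at or above the lowest member mean. CDCA3 (0.89), TACC3 (0.81) and AURKB (0.80) followed the mean of the other members most closely. At the other end CENPE (-0.33), G2E3 (-0.21) and SMC4 (-0.18) went against it. The deviations share 15 libraries and their depth, and the correlations describe these libraries only. SCC25 +YBX1 replicate 1 had 3 members above its group mean and SCC25 -YBX1 replicate 1 had 12, and the part of these libraries in the correlations was not tested.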

How the data were processed

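Libraries were QuantSeq 3′ FWD. Per the labels and the study's methods, the authors used Cutadapt, then HISAT2 on hg38, then featureCounts, and they filtered and normalised with limma. The deposited values are log2 CPM with 0.5 added to the reads, in 1 table for the lines and 1 for the knockdown. Whole reads were recovered for 100% of values (tolerance 0.05), 1 read being worth 0.138 to 0.226 CPM.

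Both tables were fitted in limma 3.58.1 (R 4.3.3) by linear models with a variance trend, using all groups of a table and no block. Tests were two-sided, with p-values adjusted by Benjamini-Hochberg over 12995 genes and a threshold of 0.05. The members, the gene lists and the tests were chosen with earlier results of these data known. Values are given for CDK1, CCNB2, TOP2A, MKI67, AURKA, AURKB, BIRC5 and CDC20, for the 5 called members with the largest change in each direction or, with none called, the 5 smallest p, for YBX1, and for the 3 most changed called pathway genes in each direction with CCNB1, PLK1, FOXM1 and CDKN1A. One pathway gene that this rule names is not reported here. Other members and pathway genes were named after their values were seen.

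Same-numbered +YBX1 and -YBX1 libraries of a line were taken as pairs. The correlations of their deviations over 6497 genes were at least 0.117 in SCC15 and 0.135 in SCC25. Number 3 in SCC15 and number 1 in SCC25, which had these lowest values, correlated better with another number (0.345 and 0.239). Same-numbered libraries of different lines, which are not paired, had correlations from -0.198 to 0.264. The lowest value of each cancer line lies within that range, so these pairs are uncertain. Transcript 3′ ends were cut into pieces of 75 bases and aligned to hg38 by minimap2 (2.31-r1302). Percents of shared pieces are of those that aligned whole to the gene's own locus. The limma fit was first tested on simulated reads in which known changes had been set. The other steps were not tested in this way.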

Additional observations from a re-analysis of the deposited data

How the results depend on the processing

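Alternatives were a replicate block, voom weights on the recovered reads, another pseudocount, library medians or quantiles set equal, no variance trend, a filter on low genes, a fit of only the groups compared, and leaving out each library. They were run for the genes chosen by the naming rule, and among these none reversed a called change, while other called genes were not run. With the numbers of the paired knockdown libraries as a replicate block, 0 members passed in SCC15, 0 in SCC25 and 0 in the difference between them, and the pairing changed no call. Between lines, where the numbers do not pair samples, the replicate block left 16, 13 and 13 members called. Voom weights called 6681, 4087 and 5850 genes in the 3 line comparisons. Setting medians equal moved the median change of all genes to 0.26, 0.14 and 0.14, and setting quantiles equal to 0.14, -0.05 and 0.17, beside 0.10, 0.13 and -0.01. With quantiles set equal, 15 members were higher and 3 lower in SCC15 against SCC25, and with only these groups fitted 8 were lower. The difference of the knockdown changes needs all 4 groups, so it could not be fitted with fewer. Leaving out a library gave 3 to 7 lower members in SCC15 against SCC25 (3 without SCC15 +YBX1 replicate 3 or SCC25 +YBX1 replicate 2), 5 to 10 in SCC15 against OKF6 (10 without OKF6 replicate 2) and 4 to 9 in SCC25 against OKF6 (4 without SCC25 +YBX1 replicate 1), and a median change of the members of -0.23 to 0.15 in SCC25 against OKF6 (-0.23 without OKF6 replicate 2). The cause was not tested.

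Among the genes run, signs reversed where the change was not called. With quantiles set equal AURKA was at 0.025 in SCC15 against SCC25, 0.025 in the SCC25 knockdown and -0.10 in SCC25 against OKF6, BIRC5 at 0.076 and 0.028 in the SCC15 and SCC25 knockdown, CDKN1A at -0.17 in SCC25 against OKF6, MKI67 at 0.0099 in SCC15 against SCC25, and TOP2A at 0.10 in the SCC15 knockdown, where voom weights gave 0.0010. Leaving out a library, the ranges that crossed 0 in SCC15 against OKF6 were AURKA -0.65 to 0.13, CCNB1 -0.19 to 0.21, CCNB2 -0.10 to 0.56 and CDC20 -0.26 to 0.34. In SCC25 against OKF6 they were AURKA -0.35 to 0.43, CCNB1 -0.38 to 0.15, CDK1 -0.37 to 0.12 and CDKN1A -0.14 to 0.20, and in SCC15 against SCC25 CCNB1 -0.10 to 0.33, PLK1 -0.20 to 0.25 and TOP2A -0.011 to 0.23. In the SCC15 knockdown they were AURKB -0.21 to 0.14, BIRC5 -0.12 to 0.16, CCNB1 -0.50 to 0.033, CCNB2 -0.15 to 0.033, CDC20 -0.42 to 0.093, CDK1 -0.020 to 0.11, CDKN1A -0.47 to 0.069 and TOP2A -0.079 to 0.14. In the SCC25 knockdown they were AURKA -0.18 to 0.14, AURKB -0.33 to 0.14, BIRC5 -0.27 to 0.28, CCNB1 -0.39 to 0.20, CCNB2 -0.29 to 0.13, CDK1 -0.11 to 0.084, CDKN1A -0.20 to 0.12, FOXM1 -0.35 to 0.18, PLK1 -0.32 to 0.14 and TOP2A -0.21 to 0.056.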
